A study of Rattus norvegicus with 9 samples.

Results

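Acute heat stress was compared with no stress in the left ventricle of rats that had lived in the heat for 1 month. The comparison used 2 of the 9 samples of the series, chosen by their titles. One is from rats kept at 34 °C for 1 month (1 mo acclimated). The other is from rats given the same month at 34 °C and then 41 °C for 2 h with 1 h of recovery at 24 °C (1 mo acclimated, heat-stressed). Total RNA was labelled with [32P]dATP by the standard procedure of Clontech, a maker of expression arrays. The labels state 3 pools and 6 animals for each group and give no strain, sex or age, and each group was deposited as 1 value per array row. There was therefore no replicate check, and the differences between both groups are sizes with no p-value. The tables held 87 array rows, and 0 of their names matched a gene of the rat reference table. Rows are therefore called by their array names, and the labelled tissue could not be checked against marker genes.

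During heat acclimation an animal adapts over days to weeks of warmth, so that heat loss begins at a lower body temperature and the heart works more economically. Acute heat stress unfolds proteins, and cells answer by activating heat shock factors that switch on genes of chaperones such as the heat shock proteins. Hearts of acclimated rats are known to hold larger reserves of these proteins and to tolerate other insults better. Without gene names, none of the rows below can be assigned to this response.

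Values are log2 ratios of a group to the untreated control as listed by the authors. A difference between both groups is the heat-stressed minus the unstressed ratio, in which the control cancels. A row counts as higher or lower where this difference was at least 2-fold, a log2 difference of 1.00. Of the 87 rows, 7 were higher after heat stress (8.05%) and 17 were lower (19.5%), and the other 63 lay in between. The difference was under 0.5 in size in 45 rows. The median over all rows was -0.19, with quartiles at -0.86 and 0.24. Taken relative to that median, A018 was higher too (8 rows, A018 at 1.04), and R637 (-0.92) and R220 (-0.85) were no longer 2-fold lower (15 rows). The listed ratios of the 87 rows spread more widely after stress (SD 0.95 over rows) than before it (0.70).

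The second deposited table, of intensities on a linear scale, was above 0 in all 87 rows in both groups. Its medians were close, 2774.5 without and 3057.5 with stress. The brightest unstressed row, R602, stood at 26633 without and 27378 with stress, and its listed ratios were 0.13 and 0.12. Scaled intensities here are log2 intensities less the median of the same group, taken over the 59 rows that were above 0 in each of the 9 groups. Readings that were missing or not above 0 gave no scaled intensity. By this measure 18 rows were higher (20.7%) and 17 were lower (19.5%), so the listed ratios gave more lower than higher rows and the intensities about as many of each.

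**Figure D1:**
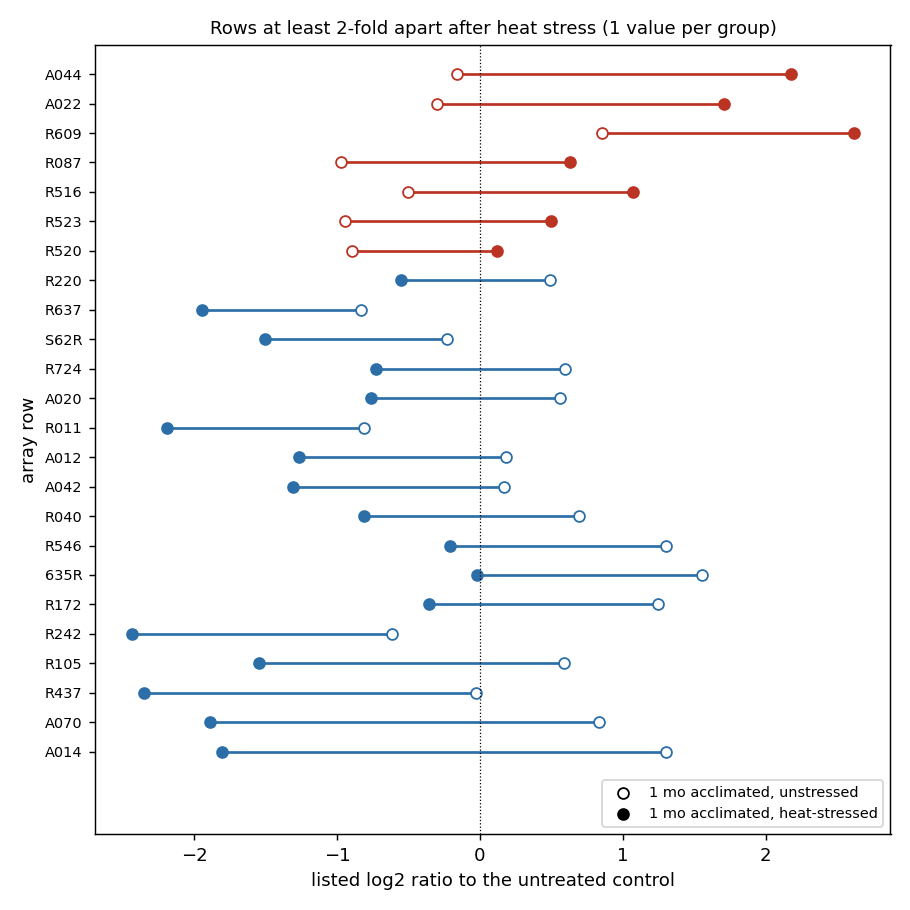
Listed log2 ratio to the untreated control (x axis) for the 24 rows at least 2-fold apart (y axis), with open circles for unstressed and filled circles for heat-stressed 1 mo acclimated rats, 1 value each. All 7 higher rows (red) end above 0 and all 17 lower rows (blue) end below it, but the place of 0 is uncertain for A022, R609, R105, A042 and R724, whose control was not listed at 0.

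Among the higher rows, A044 had the largest difference, 5.04-fold (log2 2.33). Its listed ratio was -0.16 in the unstressed and 2.18 in the heat-stressed group, and its intensity was 1959 and 10223. In the other groups the ratio of A044 was 0.89 in stressed rats without acclimation, 0.26 and 1.98 after 2 d of acclimation without and with stress, 0.75 after deacclimation, and 0.15 and 2.34 after reacclimation without and with stress. The 3 groups stressed after some acclimation were thus its highest. Deacclimated rats had spent 1 month at 24 °C after the month of acclimation, and reacclimated rats had then returned to 34 °C for 2 days.

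Row A022 was 4.03-fold higher on heat stress (2.01), from -0.30 to 1.71, with intensities of 2492 and 11123. In the other groups it was listed at -0.45 after stress without acclimation, at -0.55 and 0.69 after 2 d acclimation without and with stress, and at 2.20, 2.20 and 2.16 in the deacclimated, reacclimated and reacclimated, heat-stressed groups. The stressed 1 mo acclimated hearts were thus nearer to the 3 later groups than to the unstressed hearts of the same acclimation. Row R516 was likewise highest in those 3 later groups. It went from -0.50 to 1.07 on stress (2.99-fold, intensities 1931 and 5083), and was listed at 1.56, 1.78 and 1.59 in them. It stood at 0.19 in stressed rats without acclimation, -0.27 after 2 d acclimation and 1.33 when that was followed by stress.

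Row R609 began above the control, at 0.86, and stood at 2.62 after stress, a 3.40-fold difference (1.76). Its intensity was 4073 without and 26384 with stress. Its ratio was 2.99 in stressed rats without acclimation and 0.14, 2.94, -0.48, -0.40 and 1.68 in the 2 d acclimated, 2 d acclimated and stressed, deacclimated, reacclimated, and reacclimated and stressed groups. All 4 stressed groups thus stood above all 4 unstressed treated groups. The control column gave -3.32 for R609 and A022, although the control divided by itself has a log2 ratio of 0. That value cancels between both 1 mo groups, but levels of these rows relative to the control are uncertain.

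The remaining higher rows, R087, R523 and R520, shared a low start. They were listed at -0.97, -0.94 and -0.89 without stress and at 0.63, 0.50 and 0.12 with it. Their differences were 3.03-fold for R087, 2.72-fold for R523 and 2.02-fold for R520. Intensities gave larger ones: 693 against 4139 for R087, 521.0 against 4224 for R523, and 209.9 against 2250.3 for R520, the dimmest of the 87 unstressed rows.

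Row A014 was the lowest after heat stress relative to the unstressed hearts. Its listed ratio was 1.31 without and -1.80 with stress, 8.63-fold lower (-3.11), and its intensity was 5689 and 392. In the other groups A014 was listed at 0.71 (stressed without acclimation), 0.69 and -0.98 (2 d acclimated without and with stress), 1.76 (deacclimated), and 1.74 and 1.40 (reacclimated without and with stress). The 1 mo acclimated, heat-stressed hearts held the lowest of its listed ratios, and the 2 d acclimated, heat-stressed hearts the only other one below the control. The unscaled intensity of the latter was 208.1, which without scaling cannot be ranked against the 392 of the 1 mo group. By scaled intensity A014 was nearly level in these 2 heat-stressed groups.

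Row A070 was 6.61-fold lower (-2.72), from 0.84 to -1.89, with intensities of 1960.1 and 764.5. It was also below the control in 2 d acclimated rats after and without stress (-1.68 and -0.25) and in reacclimated, heat-stressed rats (-1.12), and above it after stress without acclimation (0.98), deacclimation (0.71) and reacclimation (0.23). Row R437, the brightest of the lower rows, was 5.01-fold lower (-2.32), from -0.03 to -2.36. Its intensity was 14885 without and 6837 with stress. Elsewhere R437 was listed between -0.83 (stressed without acclimation) and 0.55 (2 d acclimated), so by listed ratios its lowest value was that after 1 mo acclimation and stress. Unscaled intensities of R437 were 3317 in the 2 d acclimated, heat-stressed and 5516 in the stressed, not acclimated hearts. Without scaling these cannot be ranked against the 1 mo group. By scaled intensity R437 was slightly lower in the 2 d acclimated, heat-stressed than in the 1 mo acclimated, heat-stressed hearts. Its lowest place after 1 mo acclimation and stress thus holds for listed ratios only.

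Row R105 was 4.39-fold lower (-2.14), from 0.59 to -1.55, and R242 was 3.54-fold lower (-1.82), from -0.61 to -2.44. The intensities were 1138 and 380.0 for R105 and 4046 and 701 for R242. The control of R105 was listed at -6.64 and had an intensity of only 66.8, so its levels relative to the control are uncertain. R242 was also low in 2 d acclimated rats after stress (-1.93), and was listed at 0.73 in the reacclimated, heat-stressed group.

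**Figure D2:**
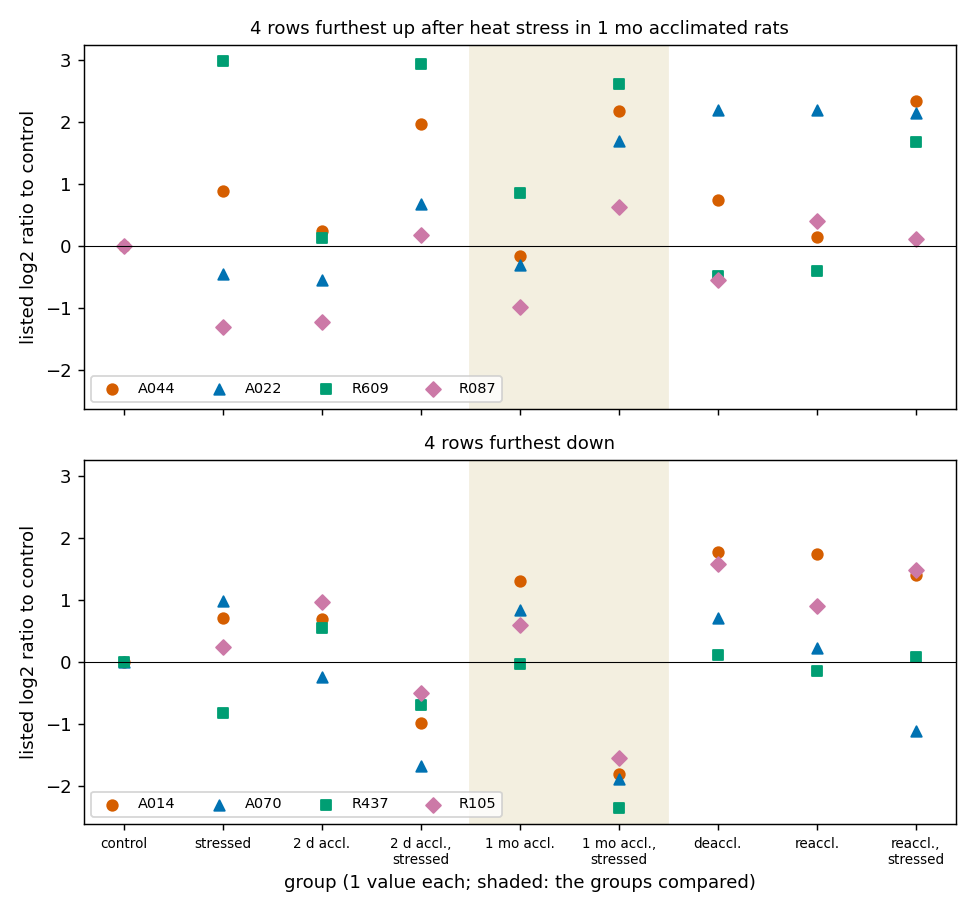
Listed log2 ratio to control (y axis) in each of the 9 groups (x axis, 1 value each) for the 4 rows with the largest differences upward (top) and downward (bottom), with both compared groups shaded. Control points of A022, R609 and R105 are not drawn, because their control was listed at -3.32 or -6.64, and the 4 lower rows all lie between -2.36 and -1.55 in the stressed 1 mo acclimated group.

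As listed, 12 of the 17 lower rows were above the control in the unstressed acclimated group, and all 17 were below it after stress. The next 4 rows in size were among these 12. Row R172 went from 1.25 to -0.36 (3.05-fold lower), row 635R from 1.56 to -0.02 (2.98-fold), row R546 from 1.31 to -0.21 (2.86-fold) and row R040 from 0.69 to -0.81 (2.84-fold). In R172, 635R and R546 the unstressed value was the one further from the control, and in R040 the stressed one was. Their intensities were lower by 2.86-fold (R172), 2.54-fold (635R), 6.18-fold (R546) and 2.41-fold (R040).

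The other 8 lower rows were between 2.05-fold (R220) and 2.78-fold (A042) lower. A012 (-1.45), A020 (-1.33) and R220 (-1.04) were at least 2-fold lower by scaled intensity too. The remaining 5 were not. They were A042 (-1.47, with -0.92 by scaled intensity), R011 (-1.38, with -0.01), R724 (-1.32, with -0.10), S62R (-1.28, with -0.48) and R637 (-1.11, with -0.39). For R011 and R724 the intensities in both groups were nearly equal, 1130.3 and 1136 for R011 and 2013 and 1895 for R724, so the listed difference of both rests on the log2 table alone. The control of A042 and R724 was listed at -3.32, so their levels relative to the control are uncertain too.

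Across the 7 higher rows the unstressed ratios ran from -0.97 to 0.86 with a median of -0.50, and the stressed ratios from 0.12 to 2.62 with a median of 1.07. Across the 17 lower rows the unstressed ratios ran from -0.84 to 1.56 with a median of 0.56, and the stressed ratios from -2.44 to -0.02 with a median of -1.31. The unstressed value enters both the start and the difference, so its error moves them in opposite directions, and the starting level is no separate evidence.

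The 5 rows next in rank below 2-fold were A018 (0.85), A039 (0.76), A066 (0.75), R177 (0.58) and R590 (0.50) on the higher side. On the lower side they were A061 (-0.98), A073 (-0.95), 14R (-0.92), S145R (-0.90) and R058 (-0.87). All 5 on the higher side were at least 2-fold higher by scaled intensity, from 1.12 (A066) to 3.32 (A039), whereas A061 had the opposite sign there (0.69).

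Both tables were then set against each other row by row. They gave the same sign in 70 of the 87 rows. Across rows, which are not independent replicates and share the same hybridisations, the differences had Pearson's r = 0.829 and Spearman's rho = 0.816. All 24 rows kept their sign, 19 of them were at least 2-fold in both tables (7 higher and 12 lower), and 0 rows were 2-fold in opposite directions. The rows with the largest differences by scaled intensity were R520 (3.41), A039 (3.32), R523 (3.01), R609 (2.68) and R087 (2.57) upward and A014 (-3.87), R546 (-2.64), R242 (-2.54), A073 (-2.02) and R570 (-1.68) downward.

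**Figure D3:**
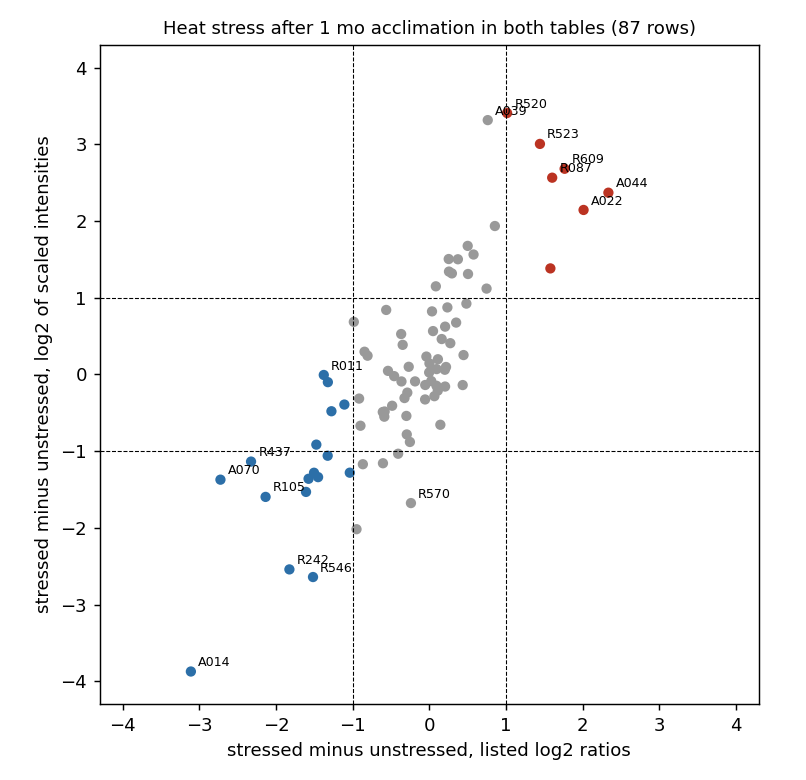
Heat-stressed minus unstressed difference in 1 mo acclimated rats by listed log2 ratios (x axis) and by log2 scaled intensities (y axis), 1 point per row, with dashed lines at 2-fold. Of the 7 higher rows (red) all lie past 2-fold in both tables, as do 12 of the 17 lower rows (blue).

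A further 16 rows were 2-fold apart by intensity alone. The 11 higher ones differed by 0.08 to 0.85 in the log2 table and had unstressed intensities of 336.7 to 2798, with 10 of them below the group's median. The 5 lower ones differed by -0.95 to -0.24 in the log2 table. Among them, R570 had intensities of 3665 and 1157 but listed ratios of 0.63 and 0.39.

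The size of the difference went with the signal. When rows were ordered by their mean intensity in both groups, 8 of the dimmest 22 rows, 8 of the next 22, 5 of the next 21 and 3 of the brightest 22 were at least 2-fold apart. The median size of the log2 difference was 0.73, 0.65, 0.43 and 0.29 in the same order. The brightest 22 rows, from 6415.6 units upward, held R609, A022 and R437. Of the 17 lower rows, 7 were among the dimmest 22. The part of low signal in these differences was not tested.

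**Figure D4:**
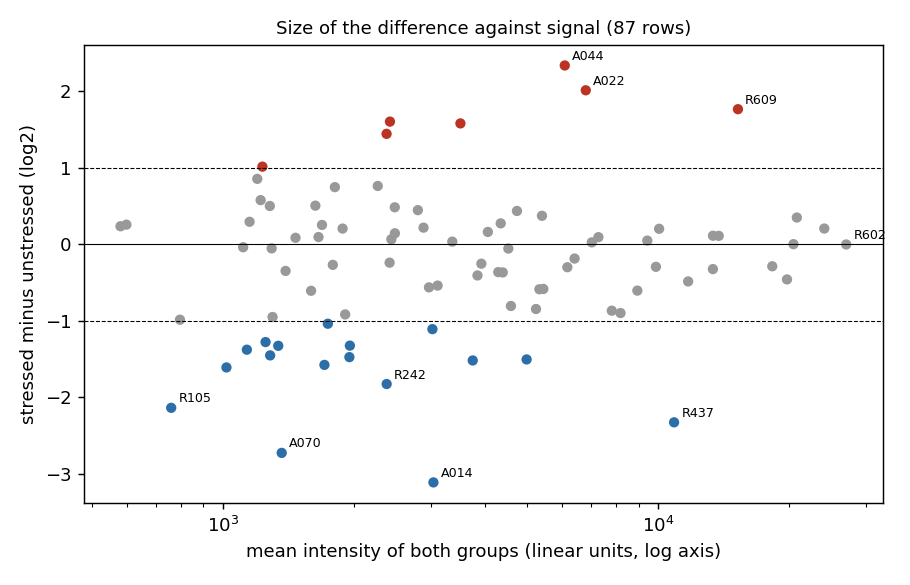
Heat-stressed minus unstressed log2 difference (y axis) against the mean intensity of both groups (x axis, log scale) for 87 rows, with dashed lines at 2-fold and red and blue for higher and lower rows. Differences spread more among dim rows, and R609, A022 and R437 are the 3 rows past 2-fold among the brightest 22.

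Heat stress was also given to rats without acclimation, after 2 d of acclimation at 34 °C and after reacclimation. Each of these differences comes from its own pair of samples. Across the 87 rows, the difference after 1 mo acclimation had r = 0.538 (rho = 0.486) with that after 2 d acclimation, r = 0.242 (rho = 0.133) with that after reacclimation and r = 0.055 (rho = 0.054) with that in rats without acclimation. Scaled intensities gave r = 0.566 over 66 rows, 0.128 over 81 rows and -0.028 over 76 rows. In both tables the profile after 2 d acclimation was thus the most alike, as a description with 1 pair per state. Over the 80 rows left without the 7 that hold a value lying apart at the low end of a column, r was 0.627, 0.320 and 0.036.

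The 7 higher rows were all above 0 after 2 d acclimation too, and 6 of them were at least 2-fold higher, where 9.20% of all rows were. The exception was R520 (0.70). A044 (1.73), A022 (1.24), R609 (2.80), R087 (1.40), R516 (1.60) and R523 (1.31) passed 2-fold. By scaled intensity the 5 of the 7 with a value in that state were all at least 2-fold higher, against 18.2% of the 66 rows with a value. R523 and R520 had none, because their readings without stress were below 0 (-641.1 and -296.5).

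In reacclimated rats A044 (2.19) and R609 (2.08) were at least 2-fold higher, where 4.60% of all rows were, and the other 5 lay between -0.62 (R520) and 0.52 (R523). A022 was among these 5 at -0.04, its level being 2.20 before and 2.16 after stress. R516 likewise differed by only -0.19, from 1.78 to 1.59. With the control taken as 0, in rats without acclimation R609 (2.99) alone of the 7 was at least 2-fold higher, where 5.75% of all rows were. The control of R609 and A022 was listed at -3.32, so their differences in that state are uncertain (A022 -0.45, with 0.79 by scaled intensity). R087 (-1.29) and R520 (-1.21) were at least 2-fold lower in rats without acclimation. A044 stood at 0.89 there, and -0.05 by scaled intensity. By that measure 3 of the 7 were at least 2-fold higher after reacclimation, against 17.3% of the 81 rows with a value. Without acclimation 1 of the 6 with a value was, against 21.1% of 76 rows.

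Of the 17 lower rows, 9 were at least 2-fold lower after 2 d acclimation, where 33.3% of all rows were. They were R040 (-2.52), R242 (-2.26), A014 (-1.67), S62R (-1.61), R105 (-1.47), A070 (-1.44), R724 (-1.31, with 0.81 by scaled intensity), R437 (-1.25) and R220 (-1.17). In reacclimated rats 4 of the 17 were, against 10.3% of all rows. These were R040 (-1.90), R011 (-1.54, with 1.69 by scaled intensity), A070 (-1.35) and R172 (-1.31). In rats without acclimation 1 of the 17 was, against 10.3% of all rows, namely S62R (-3.77, with 1.11 by scaled intensity). Its stressed listed value is one of 6 that lie apart at the low end of their column. A014 and A070, lowest after 1 mo acclimation, were listed higher there (0.71 and 0.98). By scaled intensity 7 of the 11 lower rows with a value were at least 2-fold lower after 2 d acclimation, against 31.8% of 66 rows. Left out were A070, R105, R242 and R011, whose readings were below 0 only after stress, so the count misses their falls. A020 was left out with a reading below 0 without stress, and R172 with readings below 0 in both groups. Scaled intensity gave 2 of 16 after reacclimation, against 9.88% of 81 rows. Without acclimation it gave 1 of 15, against 9.21% of 76 rows, and this row was R724 (-1.22), not S62R. In the opposite direction, 1 of the 11, 4 of the 16 and 5 of the 15 were at least 2-fold higher in the same 3 states. The shares of all rows with a value were 18.2%, 17.3% and 21.1%.

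**Figure D5:**
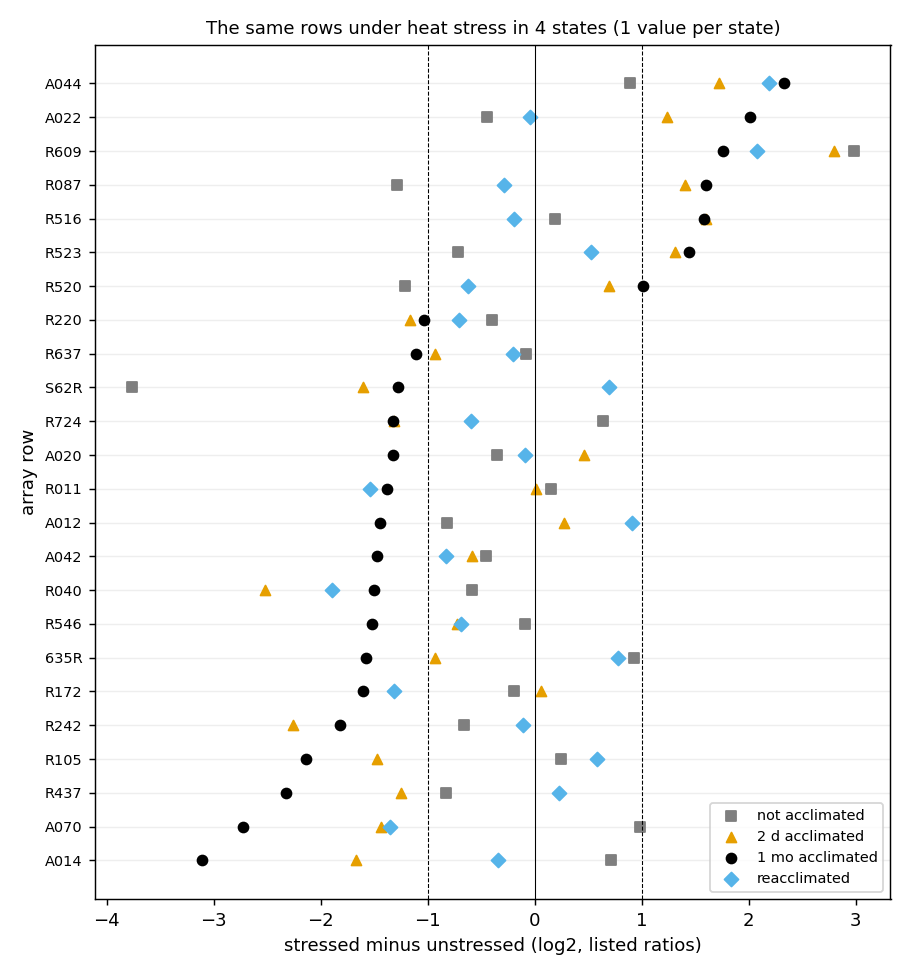
Heat-stressed minus unstressed log2 difference (x axis) of the 24 rows (y axis) in 4 states of the rats, 1 value each, with dashed lines at 2-fold. R609 is past 2-fold upward in all 4 states and A044 in 3, while A014 and A070 lie above 0 in rats without acclimation and below 0 in the other states.

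Whether the response after 1 mo acclimation differed from that in the other 3 states was examined by fitting limma to the 4 differences of each row. The 1 mo value is a single one, assumed to vary like the other 3, and the spread between states holds real differences in response as well as error. At a Benjamini-Hochberg adjusted p of 0.05, 0 of 87 rows passed (0.00%), and 3 rows had an unadjusted p under 0.05. No row is therefore called particular to 1 mo acclimation, and with 1 value against 3 the absence of calls does not show that the states respond alike. The largest differences upward from the mean of the other states were R590 (2.92 ± 1.05, SE, limma adjusted p = 0.824), A017 (2.05 ± 0.80), A022 (1.76 ± 0.84), R087 (1.66 ± 1.06) and A066 (1.60 ± 0.74). Downward they were A014 (-2.67 ± 0.98), A061 (-2.14 ± 1.32), A070 (-2.12 ± 1.07), R105 (-1.92 ± 0.94) and 635R (-1.83 ± 0.91), with limma adjusted p of 0.824 or 0.828 in all 10 rows.

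By listed ratios, R590 and A017 had small 1 mo differences and differences below 0 in the other states. R590 differed by 0.50 after 1 mo acclimation against -3.82, -1.16 and -2.26 without acclimation, after 2 d acclimation and after reacclimation. A017 differed by -0.05 against -2.87, -1.35 and -2.07 in the same order. Without acclimation both rows are among the 6 values that lie apart at the low end of that column. By scaled intensity R590 differed by 1.31 after 1 mo acclimation, -1.03 without acclimation and 0.35 after reacclimation, and A017 by -0.14, -0.81 and -1.83. Over all 87 rows, the 1 mo difference was the lowest of the 4 states in 21 rows and the highest in 21.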

How the data were processed

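The authors' deposited log2 table holds, per the labels' design text, the geometric mean of each treatment divided by that of the control, after normalization. The normalization method, any background correction and the choice of rows were not stated. The deposited intensity values are linear, and it is likewise not stated whether they were scaled or summarise pools. The number of arrays limits the precision. Per row, the unstressed was subtracted from the heat-stressed log2 ratio, and rows at least 2-fold apart were counted. In rats without acclimation the control was taken as 0. The control was not 0 (beyond 1e-04) in 9 rows, so the differences of these rows without acclimation are uncertain, also where states are compared. Values at the low end of a column, all under -2.5, were taken as lying apart where a gap of 0.9 or more separated them as a block from the rest. This applied to 6 values of the stressed, not acclimated group and 1 of the 2 d acclimated group, and to none in both 1 mo columns. States were compared with limma 3.58.1 in R 4.3.3 (lmFit, eBayes, 2 residual degrees of freedom). On simulated data with 20 of 87 rows shifted, the fit recovered 12.55% of them at a log2 shift of 2 and 91.55% at 4. Of its calls, 9.39% and 3.28% were false. All simulated rows were given the same error SD (log2 0.8354), whereas the spread of the real rows differed. These rates may therefore not hold for the real rows. Tables and plots were made with pandas 2.3.3, numpy 2.4.6 and matplotlib 3.10.9 under Python 3.11.15.

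Named rows were those at least 2-fold apart, the 5 next below it, the 5 largest by intensity and the 5 furthest from the other states, in each direction. R602 was named after its values were seen. The rows and rules were chosen with earlier results of these data known. Alternatives were intensities with and without scaling, centring, the filter on dim rows, doubtful rows, other fold limits and leaving out states.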

Additional observations from a re-analysis of the deposited data

Results flagged for a closer look

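R087 and R520 were at least 2-fold apart in opposite directions in rats acclimated for 1 month and in rats without acclimation. R087 was higher by 1.60 on heat stress after 1 mo acclimation and lower without acclimation (-1.29), but by scaled intensity it was higher in both states (2.57 and 0.46). R520 was higher by 1.01 after 1 mo acclimation and lower without acclimation (-1.21), where the stressed group has no intensity for it. The difference between these 2 states was not tested, since each has 1 value, and against the mean of all 3 other states neither row passed (limma adjusted p = 0.828 for both).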

How the results depend on the processing

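Of the 36 named rows, 4 crossed the 2-fold limit or changed sign after centring on the median difference, and 14 did in scaled intensity. The sign changed in A017 on centring (-0.05 to 0.13) and in A061 by scaled intensity (-0.98 to 0.69). Centring shifts all rows alike by 0.19, so rows 2-fold apart could not change sign under it. In scaled intensity none of them did. Higher rows numbered 18 by scaled or unscaled intensity, 17 when scaling used the rows above 0 in both groups, and 4 at 3-fold, against 7. Lower rows numbered 10 without the dimmest 25% of rows, 27 at 1.5-fold and 6 at 3-fold, against 17. The other counts ranged from 5 to 10 for higher and from 12 to 19 for lower rows. The median difference (-0.19) was -0.022 by scaled and -0.0085 by unscaled intensity, -0.054 without rows whose control was not 0, and 0.00 by construction after centring. The test against the other states called 0 rows in all 6 alternatives, with a smallest limma adjusted p between 0.064 (R590, without the 2 d acclimated state) and 0.971 (A073, scaled intensities, 59 rows). No paired analysis was possible because each group held 1 sample. With 1 value per group, no spread between animals or pools could be estimated. Alternatives that leave out rows test fewer rows, and the cause of the other changes was not tested. The correlation without rows holding low values was added after seeing the data.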
